A study of Homo sapiens with 15 samples.

Results

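Messenger RNA of 9 enzymes of the tricarboxylic acid cycle, CS, IDH2, IDH3A, OGDH, SUCLG1, SUCLA2, FH, MDH2 and the cytosolic malate dehydrogenase MDH1, was followed through 15 libraries of senescent human cells. The genes were chosen by name as cycle enzymes, with their levels in all 5 groups already known, so their values are given as a description and carry no test. The 9 were among 59428 genes listed for IMR90 and 59412 listed for Huh7, and all 9 passed the filter on low counts in both lines, where 15411 and 17474 genes remained.

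The tricarboxylic acid cycle runs in the mitochondrial matrix, where it oxidises the acetyl group of acetyl-CoA to carbon dioxide and passes the electrons to NADH and FADH2 for the respiratory chain. Its intermediates also feed the synthesis of fatty acids, amino acids and glucose. Malate dehydrogenase closes the cycle by turning malate into oxaloacetate, and the cytosolic form works against the mitochondrial form in the malate-aspartate shuttle, which carries reducing equivalents across the inner membrane. Senescent cells have left the cell cycle for good but remain metabolically active.

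IMR90 is a line of human lung fibroblasts, and its 3 groups are labelled by treatment as senescent through HRAS G12V, an oncogenic form of a growth-signalling GTPase. The growth protocol of the same samples instead describes replicative senescence reached by long passaging, and the treatment label was followed here. They carried a non-targeting short hairpin RNA (shRNA; control), an shRNA against THBD from the titles' set 1, or one from set 2. THBD encodes thrombomodulin, the thrombin-binding receptor of the cell surface, and what the set number stands for is not given in the labels. Huh7 is a human hepatocyte-derived carcinoma line, and its 2 groups were both in senescence induced by palbociclib, an inhibitor of cyclin-dependent kinases. They carried the non-targeting control or an shRNA against THBD. Each group held 3 libraries. Only senescent cells were analysed here, each line is a single line, and the labels do not say that replicates came from separate cultures, so the spread between libraries may be technical. THBD stood at 18.6 ± 1.78 CPM (read counts normalised to the TMM-scaled size of the library; SD) in the IMR90 control, 39.5 ± 1.51 among the libraries labelled set 1 and 10.6 ± 0.559 in set 2, so the libraries labelled set 1 went against their label. In Huh7 the THBD counts were 0, 0 and 6 in the control and 0, 0 and 0 with the shRNA, too few to show a fall.

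Total counts ran from 18256773 to 21509229 a library in IMR90, between 19328182 and 20020683 for Huh7 control libraries and between 22479132 and 25236178 for Huh7 shTHBD. Genes of the mitochondrial genome made up 5.43% to 5.48% of the IMR90 control counts, 5.82% to 5.98% among the libraries labelled set 1 and 6.38% to 6.58% in set 2. In Huh7 that share was 7.26% to 8.35% in the control and 7.83% to 9.94% with shTHBD. Summed fibroblast markers (8 of 8 genes present in every IMR90 group) ran from 6274 to 6362 CPM in the control, 4652 to 4782 among the libraries labelled set 1 and 11861 to 11975 in set 2. Summed hepatocyte markers in Huh7 (9 of 9 present) ran from 7099 to 7387 CPM in the control and 4991 to 5044 with shTHBD, while the fibroblast markers there ran from 1060 to 1132 and from 1670 to 1713 CPM. In IMR90 the hepatocyte markers summed to 16.0 to 18.0 CPM in the control, 138 to 149 among the libraries labelled set 1 and 10.9 to 12.6 in set 2, with SERPINA1 the most abundant (140.6 CPM among the libraries labelled set 1) and APOB, TTR and FGB at 0 in every group. Of 5 leukocyte markers none was at 0, with sums of 4.12 to 4.65 CPM in the IMR90 control, 12.5 to 14.04 among the libraries labelled set 1, 1.15 to 1.87 in set 2 and 8.13 to 10.5 in Huh7. Summed endothelial markers reached at most 4.68 CPM in IMR90 and 15.7 in Huh7, and CDH5 was at 0 in the IMR90 control. The part of these shifts in the results below was not tested.

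Among the Huh7 libraries, shTHBD replicate 3 stood apart. Its mitochondrial share was 9.94% against 8.04% and 7.83% in the other shTHBD libraries, and its counts differed from theirs with a chi-square per degree of freedom of 9.91 and 12.4, against 4.32 between those. Without it the Huh7 log2 fold changes of the enzymes were -2.45 for MDH2, -1.29 for SUCLG1, -0.58 for OGDH, -0.53 for MDH1, -0.42 for FH, -0.17 for IDH2 and -0.06 for IDH3A, and CS (-0.0131) and SUCLA2 (-0.017) turned from just above 0 to just below it. Of 53 other listed genes called in Huh7, described further on, 50 were still called in the same direction by edgeR's quasi-likelihood test without that library. SDHD, LIPT1 and VDAC1 were not (adjusted p = 0.092, 0.098 and 0.058).

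MDH2 lies on chromosome 7 at 76048051-76067508 (GRCh38, plus strand) and MDH1 on chromosome 2 at 63588609-63607197 (plus strand). CS lies on chromosome 12 at 56271699-56300391 and SUCLG1 on chromosome 2 at 84423528-84460045, both on the minus strand. RefSeq promoter windows (GRCh38.p14, 250 bases before to 50 after a gene's start) were found for 8 of the 9 genes, and OGDH had none. Printed are the longest stretches free of annotated exons in the windows of 4 genes. Those of MDH2 and CS lie before the first annotated base of the gene as counted here. Those of MDH1 and SUCLG1 lie inside the annotated span of the gene, after its first base, because the RefSeq start used lies further in. MDH2 is shown as the gene with the largest difference, MDH1 as its cytosolic counterpart, SUCLG1 as the other gene with a large difference in Huh7, and CS as a gene whose mean was not under its control in any group. Capitals mark the ETS-type motif CCGGAAG in MDH2 and the SP1-type motif GGGCGG, or its reverse complement, in CS.
MDH2 (chr7:76048005-76048050, plus strand): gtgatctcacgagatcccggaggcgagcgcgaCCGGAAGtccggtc
MDH1 (chr2:63589047-63589145, plus strand): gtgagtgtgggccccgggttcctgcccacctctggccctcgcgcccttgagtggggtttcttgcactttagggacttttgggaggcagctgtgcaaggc
SUCLG1 (chr2:84459286-84459530, minus strand): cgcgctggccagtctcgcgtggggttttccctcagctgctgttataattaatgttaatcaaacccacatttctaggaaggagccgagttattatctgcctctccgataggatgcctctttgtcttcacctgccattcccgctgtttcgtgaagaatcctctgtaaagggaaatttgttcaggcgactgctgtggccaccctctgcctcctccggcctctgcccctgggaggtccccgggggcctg
CS (chr12:56300392-56300580, minus strand): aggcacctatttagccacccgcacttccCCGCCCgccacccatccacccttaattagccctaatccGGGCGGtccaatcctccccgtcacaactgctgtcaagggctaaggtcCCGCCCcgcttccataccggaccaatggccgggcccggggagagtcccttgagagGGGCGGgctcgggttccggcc
Both strands of the whole 300-base windows were searched. CCGGAAG was found at 2 places in the MDH2 window and in none of the other members' windows, while 10.3% of all 35116 windows held it. GGGCGG was found in CS, FH, IDH3A and SUCLA2 (45.0% of all windows). The NRF1 motif was found in IDH3A and SUCLA2 (5.78%), and the ERR-type motif AAGGTCA in SUCLA2 (3.92%). The E-box CACGTG was in no member's window (7.26%). These are matches of letters in RefSeq and were not measured in these cells.

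MDH2, the mitochondrial malate dehydrogenase, was far lower in IMR90 set 2 and in Huh7 shTHBD than in their controls, and only slightly lower among the libraries labelled set 1. In IMR90 the control libraries stood at 218, 219 and 218 CPM, the libraries labelled set 1 at 191, 189 and 191, and set 2 at 33.0, 36.2 and 39.1. The 3 groups did not overlap, and set 2 rested on 660 to 754 counts a library against 4062 to 4654 in the control. MDH2 was 6.06-fold lower in set 2 (log2 fold change -2.60 ± 0.071, SE between libraries) and 1.15-fold lower among the libraries labelled set 1 (-0.20 ± 0.0051). In Huh7 the control libraries stood at 179, 169 and 178 CPM and the shTHBD libraries at 30.6, 33.8 and 29.5. The highest shTHBD library was thus well under the lowest control library, a 5.59-fold difference (log2 fold change -2.48 ± 0.0645). Of all genes tested, 135 had a lower log2 fold change than MDH2 in set 2 and 145 had a lower one in Huh7. These are levels per RNA of a bulk sample, in which fewer cells with the transcript and less of it per cell cannot be told apart.

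The neighbour STYXL1, which encodes a pseudophosphatase and starts head to head with MDH2, was named after its values were seen, so it is described with no test. It averaged 26.2 ± 1.41 CPM (SD) in the IMR90 control, 20.6 ± 1.43 among the libraries labelled set 1 and 32.0 ± 1.95 in set 2. STYXL1 was thus lower than control among the libraries labelled set 1 (log2 fold change -0.35 ± 0.0717), as MDH2 was, and higher in set 2 (0.29 ± 0.0665), where MDH2 was lower. In Huh7 it averaged 36.6 ± 2.83 CPM in the control and 42.1 ± 1.06 with shTHBD (0.20 ± 0.0679), also opposite to MDH2.

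**Figure D1:**
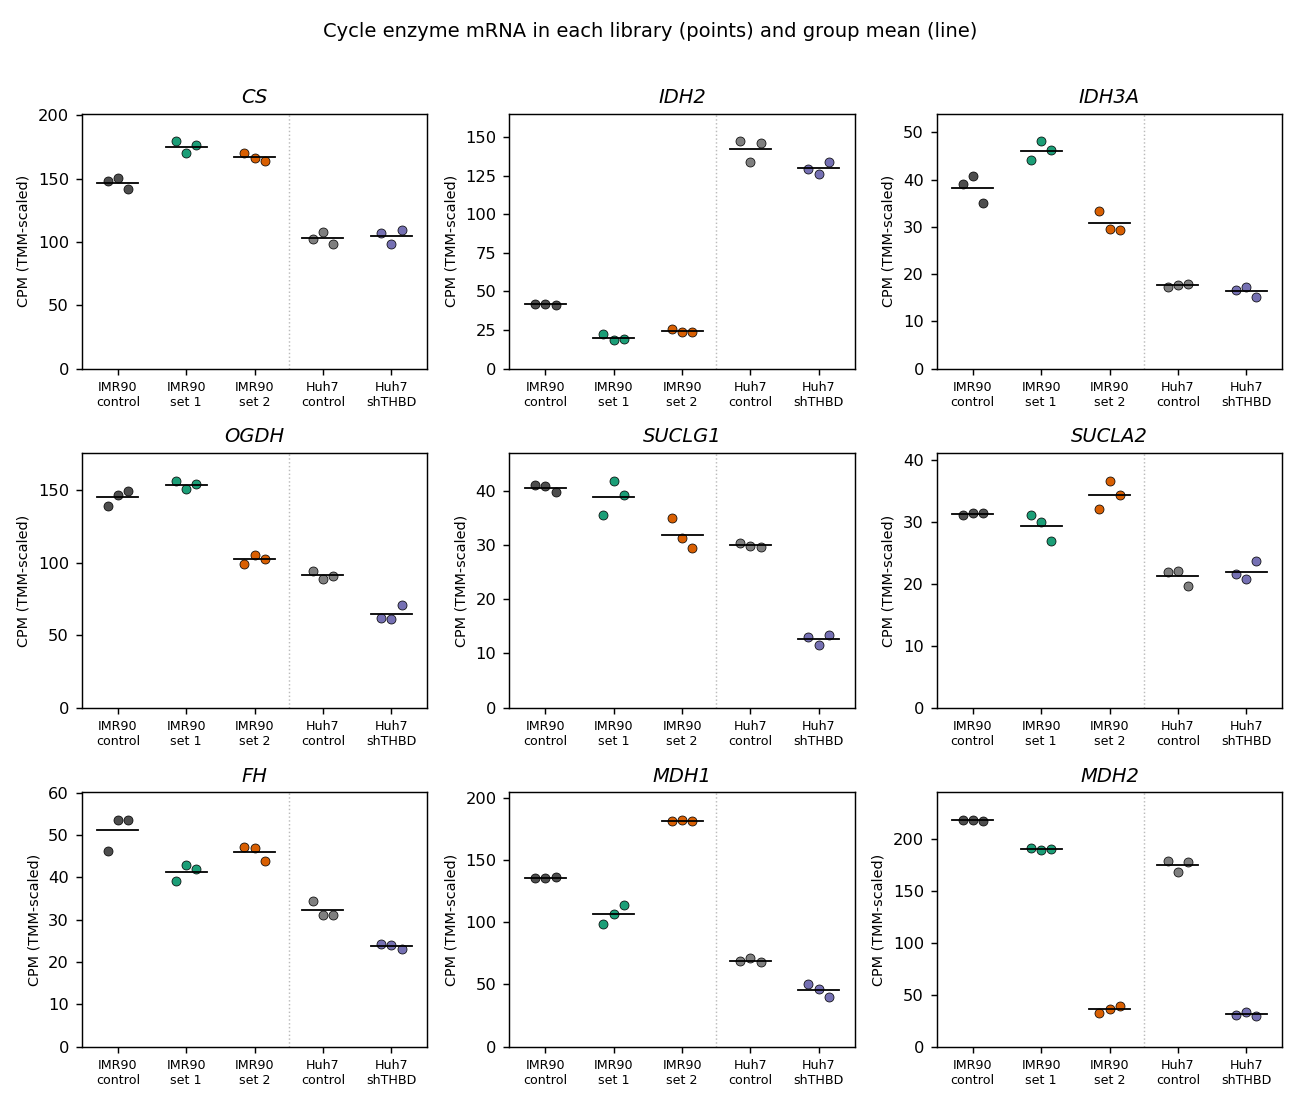
Level of each of the 9 enzymes (vertical axis, CPM scaled by TMM, from 0) in the 5 groups (horizontal axis); points are single libraries and lines group means. MDH2 drops from about 218 CPM in the IMR90 control to between 33.0 and 39.1 in set 2, and from at least 169 to at most 33.8 CPM in Huh7, while CS stays between 98.6 and 179 CPM throughout.

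MDH1, which makes oxaloacetate in the cytosol, differed in opposite directions between the 2 sets of IMR90 libraries. Its control libraries stood at 135, 135 and 136 CPM. The libraries labelled set 1 stood at 98.2, 107 and 114 CPM, and set 2 at 181, 182 and 181. All control libraries lay between those of the 2 sets, with MDH1 lower among the libraries labelled set 1 (log2 fold change -0.35 ± 0.062) and higher in set 2 (0.42 ± 0.0045). In Huh7 MDH1 was lower with shTHBD, at 50.7, 46.0 and 39.6 CPM against 68.5, 71.3 and 67.7 in the control (-0.61 ± 0.106). MDH1 shares 191 exon bases (3.83% of its exons) with WDPCP on the other strand, and WDPCP did not exceed 11.1 CPM in IMR90 or 19.3 in Huh7.

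Per length, the balance between the cytosolic and the mitochondrial enzyme turned over in set 2. The ratio of MDH1 to MDH2, each as CPM per kilobase of exon, was 0.453 ± 0.00258 (SD) in the IMR90 control and 0.407 ± 0.0312 among the libraries labelled set 1. In set 2 it was 3.69 ± 0.317. In Huh7 it was 0.289 ± 0.017 in the control and 1.06 ± 0.129 with shTHBD, where single libraries lay at 1.21, 0.993 and 0.981. MDH2 made up 33.8% of the summed per-length level of the 9 genes in the IMR90 control, 32.4% among the libraries labelled set 1 and 8.15% in set 2. In Huh7 its share was 27.7% in the control and 7.70% with shTHBD. Without MDH2, the other 8 genes summed to 631 ± 9.91 CPM in the IMR90 control, 611 ± 6.06 among the libraries labelled set 1 and 618 ± 9.34 in set 2. In Huh7 that sum was 507 ± 7.74 CPM in the control and 419.5 ± 12.3 with shTHBD.

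**Figure D2:**
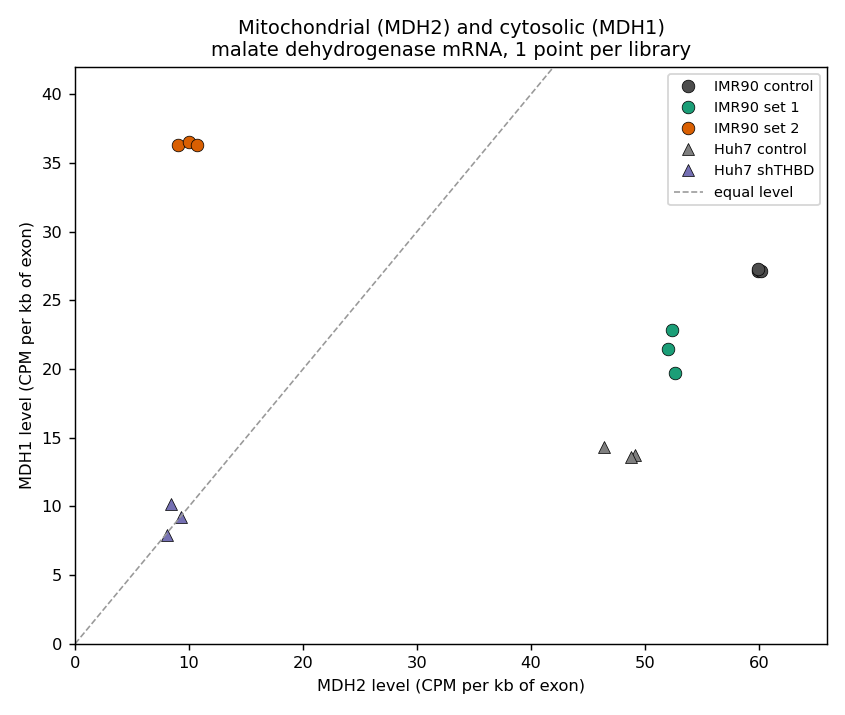
Per-length level of MDH1 (vertical axis) against MDH2 (horizontal axis), both in CPM per kilobase of exon, with 1 point per library and a dashed line of equal level. The IMR90 control, the libraries labelled set 1 and the Huh7 control lie under the line, set 2 lies above it with ratios of 3.38 to 4.01, and the Huh7 shTHBD libraries lie along it.

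At the entry to the cycle, CS, the citrate synthase that joins acetyl-CoA to oxaloacetate, had a mean at or above its control in every group. Its levels were 148, 151 and 142 CPM in the IMR90 control, 179, 169.85 and 176 among the libraries labelled set 1 and 170.4, 166 and 164 in set 2. Both sets lay above every control library (log2 fold changes 0.26 ± 0.0341 and 0.19 ± 0.0299). In Huh7 CS stood at 102, 108 and 98.6 CPM in the control and 107, 98.6 and 109 with shTHBD, and the groups overlapped (0.03 ± 0.059; -0.0081 without control replicate 3 and -0.0131 without shTHBD replicate 3). Between the sets the CS difference was 0.07 ± 0.0285 in overlapping libraries, and its sign turned with the scaling: it was -0.03 with upper-quartile factors and -0.07 with library totals alone.

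The isocitrate dehydrogenases form 2-oxoglutarate from isocitrate, IDH2 with NADP and the IDH3 complex, whose catalytic subunit is IDH3A, with NAD. IDH2 had the largest difference from control of the 9 genes among the libraries labelled set 1. Its IMR90 levels were 41.9, 42.1 and 41.0 CPM in the control, 22.2, 18.3 and 19.2 among the libraries labelled set 1 and 25.9, 23.9 and 23.5 in set 2. The groups did not overlap, with IDH2 2.10-fold lower among the libraries labelled set 1 (log2 fold change -1.07 ± 0.0828) and 1.70-fold lower in set 2 (-0.77 ± 0.0449). In Huh7, whose table was scaled separately, IDH2 was more abundant than in IMR90, at 147, 134 and 146 CPM in the control and 129.5, 126 and 134 with shTHBD (-0.13 ± 0.0498). IDH3A ranged from 35.1 to 40.7 CPM in the IMR90 control, from 44.1 to 48.1 among the libraries labelled set 1 and from 29.2 to 33.4 in set 2. It was thus above control in the former (0.27 ± 0.0725) and below it in the latter (-0.31 ± 0.0883). In Huh7 it ranged from 17.2 to 18.0 CPM in the control and from 15.2 to 17.2 with shTHBD, which overlap (-0.10 ± 0.0561). Of the IDH3A exons, 38.2% overlap ACSBG1 on the other strand, a gene that did not exceed 1.05 CPM.

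OGDH, the first enzyme of the 2-oxoglutarate dehydrogenase complex, was lower in set 2 and in Huh7 shTHBD. Its levels were 139, 147 and 149 CPM in the IMR90 control, 157, 151 and 154 among the libraries labelled set 1 and 99.3, 105 and 102 in set 2. Set 2 lay below all other IMR90 libraries (log2 fold change against control -0.51 ± 0.0384). The libraries labelled set 1 lay just above the control (0.08 ± 0.0337), with no overlap. In Huh7 OGDH stood at 94.1, 89.0 and 90.8 CPM in the control and 61.7, 61.5 and 71.0 with shTHBD (-0.50 ± 0.0727).

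Succinyl-CoA synthetase pairs a shared alpha subunit, SUCLG1, with a beta subunit that uses ADP (SUCLA2) or GDP (SUCLG2). SUCLG1 was 2.37-fold lower in Huh7 shTHBD, the largest difference after MDH2 among the 9 genes in that line. It stood there at 13.05, 11.5 and 13.3 CPM against 30.4, 29.8 and 29.6 in the control (log2 fold change -1.24 ± 0.065). In IMR90 the control libraries of SUCLG1 stood at 41.1, 40.8 and 39.7 CPM and set 2 at 35.0, 31.2 and 29.4, which do not overlap (-0.35 ± 0.0738). The libraries labelled set 1, at 35.5, 41.8 and 39.3 CPM, overlapped the control (-0.06 ± 0.0702, and 0.0025 without set 1 replicate 1). SUCLA2 ranged from 26.9 to 36.6 CPM over all IMR90 libraries and from 19.7 to 23.7 over all Huh7 libraries. Its difference from control was -0.10 ± 0.0621 among the libraries labelled set 1, 0.13 ± 0.0555 in set 2 and 0.05 ± 0.0778 in Huh7. In Huh7 the sign of that difference turned without control replicate 3 (-0.0076) or shTHBD replicate 3 (-0.017).

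FH, the fumarase that hydrates fumarate to malate, had a lower mean than its control in every comparison. Its IMR90 levels ranged from 46.3 to 53.6 CPM in the control, from 39.1 to 43.0 among the libraries labelled set 1 and from 43.8 to 47.2 in set 2. The libraries labelled set 1 lay below the control (log2 fold change -0.31 ± 0.0818), while set 2 overlapped it (-0.15 ± 0.0791). In Huh7 FH ranged from 31.1 to 34.4 CPM in the control and from 23.0 to 24.4 with shTHBD, with no overlap (-0.44 ± 0.0533). The annotated exon length of FH differs between the tables (9350 bases for IMR90 and 2142 for Huh7), so its per-length levels cannot be set side by side across lines. The per-length order within IMR90 and the MDH2 share of the summed per-length level also rest on that length.

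The calls of the 9 genes are given beside those of all genes tested, and since these contrasts were known when the genes were chosen, nothing is read from the counts. For the libraries labelled set 1 against control 3 were called higher and 4 lower. Of all genes 53.9% were called there, 27.4% higher and 26.5% lower. For set 2 against control 2 were called higher and 6 lower, where 67.3% of all genes were called, 33.2% higher and 34.1% lower. Both comparisons use the same control libraries. Between the sets 9 were called, 5 of them higher among the libraries labelled set 1 and 4 higher in set 2, where 69.6% of all genes were called (34.0% and 35.6%). In Huh7 0 were called higher and 5 lower, where 53.0% of all genes were called, 25.8% higher and 27.1% lower. The median log2 fold change of the 9 genes was -0.10 among the libraries labelled set 1, -0.31 in set 2 and -0.44 in Huh7, beside medians over all genes tested of -0.0019, 0.0069 and 0.002.

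Between the IMR90 sets, compared with no control, MDH2 again had the largest difference of the 9 genes. MDH2 was 5.28-fold higher among the libraries labelled set 1 than in set 2 (log2 fold change 2.40 ± 0.0711), and OGDH (0.59 ± 0.0288), IDH3A (0.59 ± 0.0714) and SUCLG1 (0.29 ± 0.0997) were also higher there. In the other direction, MDH1 (-0.77 ± 0.062), IDH2 (-0.30 ± 0.0929), SUCLA2 (-0.23 ± 0.0831) and FH (-0.15 ± 0.0535) were lower than in set 2. None of these genes overlapped between the sets.

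The order of the levels per length placed MDH2 at rank 1 of 9 in the IMR90 control and at rank 4 in set 2. In the IMR90 control MDH2 stood at 59.99 CPM per kilobase, OGDH at 27.9, MDH1 at 27.2, CS at 22.9, IDH2 at 14.95, SUCLG1 at 9.74, IDH3A at 5.61, FH at 5.47 and SUCLA2 at 3.52. The neighbours OGDH and MDH1, and IDH3A and FH, overlapped between libraries. The place of FH in every IMR90 order rests on its annotated exon length of 9350 bases there, against 2142 for Huh7. With the shorter length FH would stand higher, in set 2 above MDH2. Among the libraries labelled set 1 the order began with MDH2 (52.3), OGDH (29.5) and CS (27.4). In set 2 it began with MDH1 (36.4 CPM per kilobase), CS (26.1) and OGDH (19.6), followed by MDH2 (9.91) and IDH2 (8.77), which overlapped each other. In the Huh7 control IDH2 (50.6) and MDH2 (48.1) overlapped at the top, ahead of OGDH (17.5). With shTHBD IDH2 (46.1) stood alone at the top, and MDH2 (8.59) was at rank 6, overlapping MDH1 (9.10) above it.

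Another 9 genes of the cycle were tested in the same fits, with p-values adjusted over all genes. Among the libraries labelled set 1 against control 4 of 9 rose and 3 fell (median log2 fold change 0.08). In set 2 against control 2 rose and 4 fell (median -0.10). In Huh7 none rose and 6 fell (median -0.34). Beside these, 53.9%, 67.3% and 53.0% of all genes tested were called. Called higher were 27.4%, 33.2% and 25.8%, and called lower 26.5%, 34.1% and 27.1%. The 6 of 9 called in set 2 lie at the background share. Among the libraries labelled set 1 and in Huh7 more of the list was called than that share. The list was written with earlier results of these data known, so nothing particular to it is read from the counts.

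DLST, the core enzyme of the OGDH complex, moved beside OGDH. It fell from 142 ± 1.65 to 95.4 ± 5.18 CPM in set 2 (SD; log2 fold change -0.57 ± 0.0456 SE, adjusted p = 1e-26) and from 78.5 ± 6.45 to 50.3 ± 2.32 CPM in Huh7 (-0.64 ± 0.0791, adjusted p = 6.3e-09). DLD, the dihydrolipoyl dehydrogenase of the same complex and of other complexes, rose in set 2 from 85.0 ± 2.32 to 116 ± 1.05 CPM (0.45 ± 0.0238, adjusted p = 1.2e-18). In Huh7 its libraries overlapped (-0.10 ± 0.0695, adjusted p = 0.24).

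SUCLG2, the GDP-using partner of SUCLG1, fell in all 3 comparisons with a control. Its IMR90 level went from 53.4 ± 4.02 CPM to 31.9 ± 0.877 among the libraries labelled set 1 (-0.74 ± 0.0664, adjusted p = 1.3e-19) and 34.7 ± 2.32 in set 2 (-0.63 ± 0.0828, adjusted p = 1.4e-16). In Huh7 it went from 20.3 ± 2.41 to 8.87 ± 0.737 CPM (-1.19 ± 0.12, adjusted p = 1.3e-09). The alpha subunit SUCLG1 and the GDP-using SUCLG2 were thus both more than 2-fold lower in Huh7, while the ADP-using SUCLA2 stayed within the spread between libraries.

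Of the regulatory subunits of the NAD-linked isocitrate dehydrogenase, IDH3B rose among the libraries labelled set 1 (0.38 ± 0.0491, adjusted p = 2.1e-10) and fell in Huh7 (-0.68 ± 0.1, adjusted p = 2e-08). Its set 2 value was -0.10 ± 0.0508 (adjusted p = 0.083). IDH3G fell among the libraries labelled set 1 (-0.20 ± 0.072, adjusted p = 0.0016), in set 2 (-0.25 ± 0.0679, adjusted p = 5.7e-05) and in Huh7, where its libraries overlapped (-0.31 ± 0.155, adjusted p = 0.021). The subunits of succinate dehydrogenase, which is also complex II of the respiratory chain, did not move together in IMR90. In Huh7 each of them had a lower mean with shTHBD. There SDHC (-0.11 ± 0.0344, adjusted p = 0.15) and SDHA (-0.34 ± 0.145, adjusted p = 0.091) did not pass the threshold. SDHC, a membrane anchor, rose in set 2 (0.34 ± 0.0461, adjusted p = 1.1e-11) and fell among the libraries labelled set 1 (-0.33 ± 0.0587, adjusted p = 5.6e-10). SDHB, the iron-sulphur subunit, rose slightly among the libraries labelled set 1 (0.12 ± 0.0343, adjusted p = 0.024), and fell in set 2 (-0.14 ± 0.0363, adjusted p = 0.0089) and in Huh7 (-0.57 ± 0.11, adjusted p = 1.6e-05). SDHD values were 0.26 ± 0.0394 among the libraries labelled set 1 (adjusted p = 0.0017), -0.01 ± 0.0574 in set 2 (adjusted p = 0.88) and -0.34 ± 0.201 in Huh7 (adjusted p = 0.018; -0.20 and 0.092 without shTHBD replicate 3). SDHA has near-identical pseudogene copies that can take its reads, so its values of 5.53 to 12.8 CPM are uncertain.

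**Figure D3:**
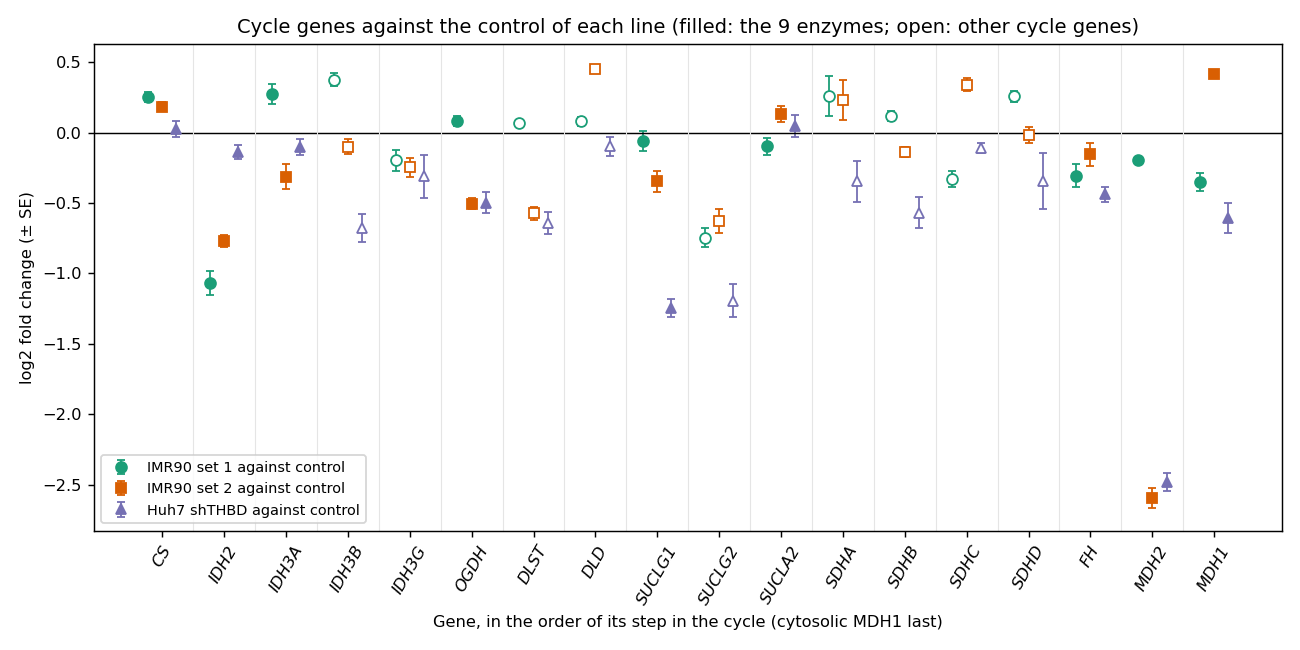
Log2 fold change against the control of the same line (vertical axis, bars are the SE between libraries) for 18 cycle genes in the order of their steps; filled symbols are the 9 enzymes and open symbols the other cycle genes. MDH2 lies at -2.60 in set 2 and -2.48 in Huh7, apart from every other gene drawn, the next being SUCLG1 at -1.24 in Huh7.

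The routes that lead into and out of the cycle are given as counts beside the same background shares, 53.9% of all genes called among the libraries labelled set 1, 67.3% in set 2 and 53.0% in Huh7. In that order, 27.4%, 33.2% and 25.8% of all genes were called higher, and 26.5%, 34.1% and 27.1% lower. Of 13 tested genes of pyruvate entry in IMR90, 2 rose and 7 fell among the libraries labelled set 1 and 6 rose and 6 fell in set 2, and in Huh7 1 of 14 rose and 7 fell. PC, the pyruvate carboxylase, which also makes oxaloacetate, fell in Huh7 from 152 to 49.7 CPM (log2 fold change -1.61 ± 0.0448, adjusted p = 1.5e-20). PC also fell in IMR90, from 21.9 CPM to 12.3 among the libraries labelled set 1 (-0.82 ± 0.121, adjusted p = 1.9e-12) and 10.3 in set 2 (-1.08 ± 0.126, adjusted p = 6.6e-18). Among 15 tested genes of the shuttles and cytosolic counterparts, 2 rose and 10 fell for the libraries labelled set 1, 4 rose and 11 fell in set 2, and 1 rose and 11 fell in Huh7. GOT2, the mitochondrial aspartate aminotransferase that works beside MDH2 in the malate-aspartate shuttle, fell in Huh7 (-1.26 ± 0.0998, adjusted p = 3.8e-15). GOT2 also fell in set 2 (-0.70 ± 0.0205, adjusted p = 4.1e-30) and slightly among the libraries labelled set 1 (-0.09 ± 0.017, adjusted p = 0.045). In set 2, where MDH1 was higher, the cytosolic NADPH producers IDH1 (0.84 ± 0.0528, adjusted p = 1.4e-33) and ME1 (0.69 ± 0.0354, adjusted p = 5e-28) rose. Among the libraries labelled set 1 both fell (IDH1 -0.45 ± 0.0611, adjusted p = 5.2e-14, and ME1 -0.13 ± 0.0407, adjusted p = 0.012). In Huh7 both fell as well, IDH1 by 0.15 (adjusted p = 0.014) and ME1 by 1.07 (adjusted p = 7.4e-17) on the log2 scale. PCK2, the mitochondrial enzyme that turns oxaloacetate into phosphoenolpyruvate, fell from 46.1 CPM to 15.03 among the libraries labelled set 1 (-1.62 ± 0.092, adjusted p = 7.9e-36) and 18.2 in set 2 (-1.34 ± 0.061, adjusted p = 1.6e-31). PCK2 fell in Huh7 too, from 46.4 to 32.1 CPM (-0.53 ± 0.0616, adjusted p = 2.4e-06).

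Of 10 tested genes of glutamine and propionyl-CoA entry, 4 rose and 5 fell in each IMR90 set, and 1 rose and 6 fell in Huh7. ABAT, the GABA transaminase, fell further than MDH2 in Huh7, from 56.2 to 6.37 CPM (-3.14 ± 0.0952, adjusted p = 1.1e-22), and fell in set 2 from 48.0 to 9.41 CPM (-2.35 ± 0.123, adjusted p = 4.7e-50). Among the libraries labelled set 1 ABAT rose to 71.3 CPM (0.57 ± 0.0378, adjusted p = 5.5e-16). Of 10 assembly and cofactor genes, 3 rose and 4 fell among the libraries labelled set 1, 4 rose and 1 fell in set 2, and 2 rose and 1 fell in Huh7. The gene that fell in set 2 and in Huh7 was NFS1, the cysteine desulfurase that supplies sulphur for the iron-sulphur clusters carried by proteins such as SDHB. It went from 21.3 to 7.93 CPM in set 2 (-1.42 ± 0.13, adjusted p = 4.6e-24) and from 34.5 to 9.99 CPM in Huh7 (-1.79 ± 0.132, adjusted p = 3.6e-15). NFS1 also fell, by less, among the libraries labelled set 1, to 18.4 CPM (-0.21 ± 0.0875, adjusted p = 0.04).

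Among 13 regulators of mitochondrial biogenesis, 6 rose and 2 fell for the libraries labelled set 1, 4 rose and 7 fell in set 2, and 2 rose and 1 fell in Huh7. ESRRA, a nuclear receptor that regulates oxidative metabolism genes, fell in set 2 (-0.99 ± 0.0609, adjusted p = 7.3e-30) and in Huh7 (-0.54 ± 0.122, adjusted p = 5.5e-05). GABPB1 rose among the libraries labelled set 1 (0.37 ± 0.0813, adjusted p = 4.9e-05), in set 2 (0.25 ± 0.0679, adjusted p = 0.0039) and in Huh7 (0.57 ± 0.119, adjusted p = 1.8e-05). TFAM rose among the libraries labelled set 1 (0.76 ± 0.0833, adjusted p = 1.5e-18) and in set 2 (0.38 ± 0.0439, adjusted p = 5e-07), and stood at -0.02 ± 0.0664 in Huh7 (adjusted p = 0.85). Of 19 genes of import and matrix chaperones, 12 rose and 4 fell among the libraries labelled set 1, 6 rose and 12 fell in set 2, and 2 rose and 12 fell in Huh7. CLPP, a matrix protease, fell in set 2 (-1.44 ± 0.0436, adjusted p = 4e-47) and in Huh7 (-1.24 ± 0.0971, adjusted p = 2.5e-11). CLPP rose among the libraries labelled set 1 (0.19 ± 0.0292, adjusted p = 6.8e-05). TOMM22 rose among the libraries labelled set 1 (0.31 ± 0.0283, adjusted p = 4e-09) and in set 2 (0.81 ± 0.026, adjusted p = 2.1e-32), and stood at 0.02 ± 0.0449 in Huh7 (adjusted p = 0.84).

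**Figure D4:**
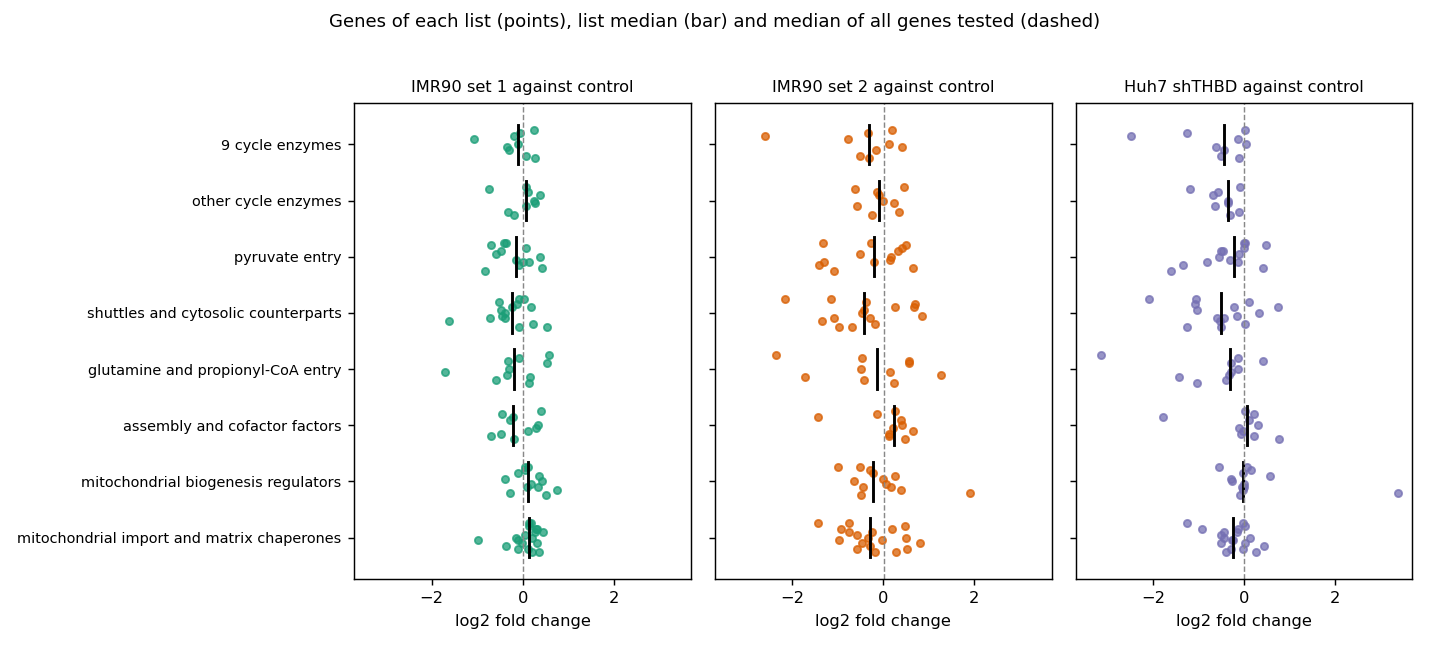
Log2 fold change (horizontal axis) of each tested gene of 8 lists (rows) in the 3 comparisons with a control; points are genes, bars list medians and dashed lines the median of all genes tested. MDH2 is the leftmost point of its row in set 2 and in Huh7, and the medians of the 9 enzymes lie at -0.10, -0.31 and -0.44.

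The genes whose pattern was most like that of MDH2 were ranked by Pearson's r of log2 CPM among genes that averaged 10 CPM or more. Over the 9 IMR90 libraries these were SLC16A3, CXCL2, LIF, ANTXR2 and FAM189B (r from 0.9988 to 0.9993 among 8803 genes). Over the 6 Huh7 libraries they were PHKA2, KRT18, PFAS, IFITM3 and PRSS35 (r from 0.9998 to 0.9999 among 9885 genes). The points share 3 or 2 groups, so r mainly reflects the difference between groups. Among the other enzymes, r with MDH2 was 0.97 for OGDH, 0.86 for SUCLG1, 0.80 for IDH3A, 0.30 for IDH2, 0.05 for FH, -0.31 for CS, -0.70 for SUCLA2 and -0.84 for MDH1 in IMR90. In Huh7 it was 0.99 for SUCLG1, 0.98 for FH, 0.95 for OGDH, 0.95 for MDH1, 0.80 for IDH2, 0.70 for IDH3A, -0.27 for CS and -0.34 for SUCLA2. The r of MDH1 was thus positive in Huh7 and negative in IMR90.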

How the data were processed

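Total RNA of 15 libraries was sequenced, and gene tables were used. The submitters' processing notes name fastp, STAR, featureCounts and the build GRCh38. The header of the IMR90 table names featureCounts 2.0.1 and GENCODE 38. For Huh7, annotation and counter version were not given in the sources used here. No strand option is recorded, so reads of genes that overlap on opposite strands cannot be told apart. The values used are the raw gene counts the authors deposited, whole numbers with no normalization.

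IMR90 and Huh7 were fitted separately by the quasi-likelihood test of edgeR 4.0.16 under R 4.3.3, after filterByExpr and TMM scaling, with all 9 IMR90 libraries in 1 fit. P-values were adjusted by Benjamini and Hochberg over all genes tested and called under 0.05. CPM divide counts by the TMM-scaled library size. Log2 CPM, used for each SE and for r, carry a prior count of 2. Log2 fold changes come from the fit itself, without that prior count. Per-length levels divide CPM by the table's exon length in kilobases. An SE is the spread between libraries on the log2 scale. From 3 libraries a group it can fall under counting noise by chance and then understates the uncertainty. The SE of 0.0051 for MDH2 among the libraries labelled set 1 and 0.0045 for MDH1 in set 2 are such values. The IMR90 and Huh7 tables were scaled separately, and no test crosses them. The script was tested on simulated data.

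The description of set 2 replicate 3 names Huh7, while its other labels name IMR-90. Hepatocyte markers summed to at most 12.6 CPM in every set 2 library, this one included, against at least 4991 in Huh7. It was kept with IMR90. Replicates differed by more than counting noise in every pair (chi-square per degree of freedom 1.93 to 2.68 in IMR90 and 3.60 to 12.4 in Huh7). The 9 enzymes, the gene lists and the promoter motifs were chosen with earlier results of these data known. Named beside them are 9 other cycle genes (1 further cycle gene is not reported here) and, from each list and comparison, up to 2 genes with the largest rise and 2 with the largest fall among called genes with at least 10 CPM in a group and no overlap; some of these are left unnamed. STYXL1 falls outside that rule. Alternatives were other scalings, DESeq2 1.42.0, other filters, a replicate block, leaving out each library, and fits of only the 6 libraries compared. Scaling by library totals alone, the 6-library fits and the Huh7 list counts without shTHBD replicate 3 were added after seeing the data.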

Additional observations from a re-analysis of the deposited data

Results flagged for a closer look

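Between lines, some cycle genes lay above their control in every library of 1 IMR90 set and below it in every library of Huh7 shTHBD. How many of all genes tested do the same was not counted, so nothing particular to the cycle is read from this. The difference between the lines was not tested. MDH1 stood at a log2 fold change of 0.42 in set 2 and -0.61 in Huh7. OGDH stood at 0.083 among the libraries labelled set 1 and -0.50 in Huh7. IDH3B stood at 0.38 among the libraries labelled set 1 and -0.68 in Huh7, DLST at 0.068 and -0.64, and SDHB at 0.12 and -0.57. SDHC stood at 0.34 in set 2 and -0.11 in Huh7. Its annotated exon length differs between the lines, so these values rest on different sets of exons. The control means were 82.3 CPM and 43.3 CPM per kilobase in IMR90, and 100 CPM and 7.06 CPM per kilobase in Huh7. The DLST value among the libraries labelled set 1 and the SDHC value in Huh7 did not pass the threshold in their own comparison. The OGDH value among the libraries labelled set 1 no longer passed under several alternatives, among them DESeq2. With library totals alone it was 0.0277.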

How the results depend on the processing

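Counts of genes called stayed within 1.5 times under all 63 alternatives, and so did counts of the 9 enzymes called. Leaving out each library gave 7635 to 8462 genes called among the libraries labelled set 1, 9926 to 10515 in set 2, 10328 to 10852 between the sets and 8382 to 9220 in Huh7, with 6 to 7, 7 to 9, 7 to 9 and 5 to 6 of the 9 enzymes. Of 567 alternative log2 fold changes of the enzymes, 525 moved by less than the spread between libraries and 40 moved further with their sign kept. The sign turned in 7. Of these, 5 were values near 0 within the spread, SUCLG1 among the libraries labelled set 1 and CS and SUCLA2 in Huh7, each when 1 library was left out. The other 2 were CS between the sets, which was -0.0298 with upper-quartile factors and -0.0692 with library totals alone. Between the sets these scalings moved the median of all genes from -0.03 to -0.13 and -0.17. Against that shift MDH2 between the sets was 2.30 and 2.26 beside 2.40. Without division by length MDH2 ranked 5 of 9 in set 2, 1 in the Huh7 control and 5 in Huh7 shTHBD. The counts of enzymes called rest in part on small differences. OGDH among the libraries labelled set 1, FH in set 2, and CS, FH and SUCLA2 between the sets were each no longer counted under at least 1 alternative, and IDH2 in Huh7 and SUCLA2 in set 2 were counted under some. Same-numbered libraries did not deviate together (r from -0.0259 to 0.0225 in IMR90 and -0.0524 to -0.0158 in Huh7). This cannot exclude that the numbers mark a shared culture, since deviations of single genes include counting noise. A replicate block gave 8242, 10305, 10673 and 8808 genes called and 7, 8, 9 and 5 enzymes among the libraries labelled set 1, in set 2, between the sets and in Huh7. The depth left each enzyme with at least 294 counts a library, and THBD in Huh7 with at most 6.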
